A study of Mus musculus with 2 samples.

Results

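The genes described here are 34 genes of glycolysis and of glucose and lactate transport in mouse adipose tissue, out of 43346 mouse genes in the deposited tables. The list was drawn up by name, with earlier results of these data known, and its rule uses no measured value. It holds the isozymes of each step from hexokinase to lactate dehydrogenase, the enzymes that make and break fructose-2,6-bisphosphate, 3 glucose carriers and 2 lactate carriers. The source was adipose tissue of an adult male of strain C57BL/6J at 10 weeks, with no allele or treatment named in the labels, and its polyadenylated RNA was sequenced. The labels give 1 biosample in 2 technical libraries and a single group, so every comparison below sets 1 library against the other and none sets a condition against another. The labels place library 2 after the publication that library 1 belongs to, so the library and its date of making cannot be told apart.

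Glycolysis splits glucose into pyruvate, and in cells that lack oxygen or mitochondria the pyruvate leaves as lactate. Most steps have several isozymes encoded by different genes: a broadly used one and others that prevail in muscle, brain, liver or sperm. In fat cells insulin brings the carrier encoded by Slc2a4 (GLUT4) to the cell surface, and glycolysis supplies the glycerol backbone of stored fat. Sperm use their own isozymes, among them Gapdhs, Pgk2 and Ldhc, to feed the tail.

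Levels are given as TPM, a length-scaled share that sums to the same total in each library. All 34 genes had at least 5 counts in each library, and 30 reached 1 TPM in both. Their median level was 13.5 TPM in library 1 and 39.7 in library 2, and together they held 0.072% and 0.395% of TPM. Every one of the 34 had a higher TPM in library 2. The total per library is fixed, and genes of the mitochondrial genome with their nuclear copies held 51.7% of TPM in library 1 against 15.9% in library 2. A ratio of TPM between libraries therefore includes this difference, and ratios below were instead taken from scaled counts.

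The libraries held 19954869 and 19256807 expected counts. Marker genes were set against the label: all 10 adipocyte markers reached 1 TPM in both, and their summed level was 6981 and 16251 TPM. Markers of the epididymal duct, in which sperm mature, summed to 46564 and 52836 TPM over 10 genes, and sperm-forming cell markers to 346 and 1592 TPM over 12 genes, with Tssk6 at 0 counts in library 1. Skeletal muscle markers summed to 25.8 and 52.1 TPM over 12 genes. In library 1, 4 of these were at 0 counts (Ckm, Myh4, Myh7 and Tnni2), and in library 2 Myh4 was. Erythroid markers summed to 372 and 4286 TPM over 10 genes, and macrophage and neutrophil markers to 276 and 943 TPM over 12 genes. Summed levels were 147 and 688 TPM for 6 smooth muscle markers, 6.4 and 24.0 TPM for 10 neuron markers and 9.45 and 15.9 TPM for 8 liver markers. In bulk tissue, fewer cells of a type and less RNA per cell cannot be told apart. The epididymal sum exceeded the adipocyte sum in both libraries, so the levels below are those of the RNA in these libraries and cannot be assigned to fat cells. The part of the other cell types in them was not tested.

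Sequences are shown first for pyruvate kinase and lactate dehydrogenase, a step whose forms come from 1 gene and a step whose forms come from neighbouring genes. Pkm makes the M1 and M2 forms of pyruvate kinase from mutually exclusive exons of equal length, 167 bases each, which are wholly coding. The exons lie on chromosome 9, plus strand, of the mm10 assembly, M1 at chr9:59675029-59675195 and M2 at chr9:59675568-59675734. They are identical at 103 positions and differ at 64, which are in capitals, and their GC content was 56.3% for M1 and 62.9% for M2. These exons are shown because they are what distinguishes the forms.
Pkm M1 exon: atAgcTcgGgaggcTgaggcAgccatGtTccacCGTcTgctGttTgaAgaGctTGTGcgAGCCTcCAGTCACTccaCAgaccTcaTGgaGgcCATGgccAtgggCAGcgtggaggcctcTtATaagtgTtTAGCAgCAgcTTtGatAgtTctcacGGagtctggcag
Pkm M2 exon: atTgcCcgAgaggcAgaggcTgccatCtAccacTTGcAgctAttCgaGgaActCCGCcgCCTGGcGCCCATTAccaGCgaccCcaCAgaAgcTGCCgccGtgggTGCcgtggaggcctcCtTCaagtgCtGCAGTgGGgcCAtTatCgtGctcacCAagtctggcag

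Ldha, the broadly used lactate dehydrogenase subunit that favours lactate formation, lies beside Ldhc, the sperm subunit, on chromosome 7, with 5575 bases between the annotated genes. The 250 bases upstream of a RefSeq start (GRCm38.p6, plus strand) are shown for each, with the motif ACGTG or its reverse CACGT in capitals, overlapping matches on both strands being merged. This is one form of the core RCGTG (R for A or G) of the site bound by hypoxia-inducible factor, known to control glycolytic genes. The other form, GCGTG or its reverse CACGC, was not searched, and it occurs in the Ldhc window shown. Ldha at chr7:46845554-46845803 held 3 places with ACGTG or CACGT and Ldhc at chr7:46861013-46861262 held none. Their GC contents were 67.2% and 54.4%. The other RefSeq start of each gene had no match to ACGTG or CACGT in its window. The windows shown of both genes therefore hold the core, that of Ldha as ACGTG or CACGT and that of Ldhc as GCGTG or CACGC.
Ldha promoter: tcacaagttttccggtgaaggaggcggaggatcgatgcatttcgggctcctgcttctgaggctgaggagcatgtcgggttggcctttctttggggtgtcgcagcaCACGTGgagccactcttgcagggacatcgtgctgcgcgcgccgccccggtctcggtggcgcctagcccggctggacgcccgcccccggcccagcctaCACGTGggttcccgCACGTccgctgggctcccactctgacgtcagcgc
Ldhc promoter: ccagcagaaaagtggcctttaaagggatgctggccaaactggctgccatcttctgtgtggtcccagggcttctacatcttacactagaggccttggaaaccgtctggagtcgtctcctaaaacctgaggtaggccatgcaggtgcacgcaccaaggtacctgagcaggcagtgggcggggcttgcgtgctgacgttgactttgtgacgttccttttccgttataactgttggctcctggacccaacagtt

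Over all members with a promoter in the RefSeq table (32 of 34), 17 of 52 windows held the motif (32.7%), against 16.6% of all 32851 windows. By gene, 13 of the 32 members had a match in any window. Windows of the same gene can overlap, as in Aldoa, so they are not independent. The share over all windows was not matched for GC content, so the difference is a description only. These are matches of letters and not measured binding sites.

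Glucose enters through the carriers. Slc2a4, the insulin-responsive carrier of fat and muscle (mm10, chr11:69942539-69948188, minus strand), was at 4.69 TPM in library 1 and 53.29 in library 2. Slc2a3, a carrier best known from neurons, was at 12.33 and 29.51 TPM, and Slc2a1, the widely used carrier, at 1.28 and 14.46 TPM. Slc2a3 led in library 1 with 67.4% of the summed TPM of the 3 carriers, whereas Slc2a4 led in library 2 with 54.8%. The order of these carriers was thus not the same in the 2 libraries. By scaled counts the log2 ratios, library 2 over library 1, were 0.53 for Slc2a3 and 2.58 for Slc2a4. Their GC contents were 49.0% and 55.7%. After removal of the trend with GC content described further on the log2 ratios were 0.66 and 0.58, and neither gene was called. The TPM ratio of Slc2a4 to Slc2a1 was nearly the same in both libraries, at 3.66 and 3.69. The GC content of Slc2a4 exceeded that of Slc2a1 by 1.04 percentage points.

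**Figure D1:**
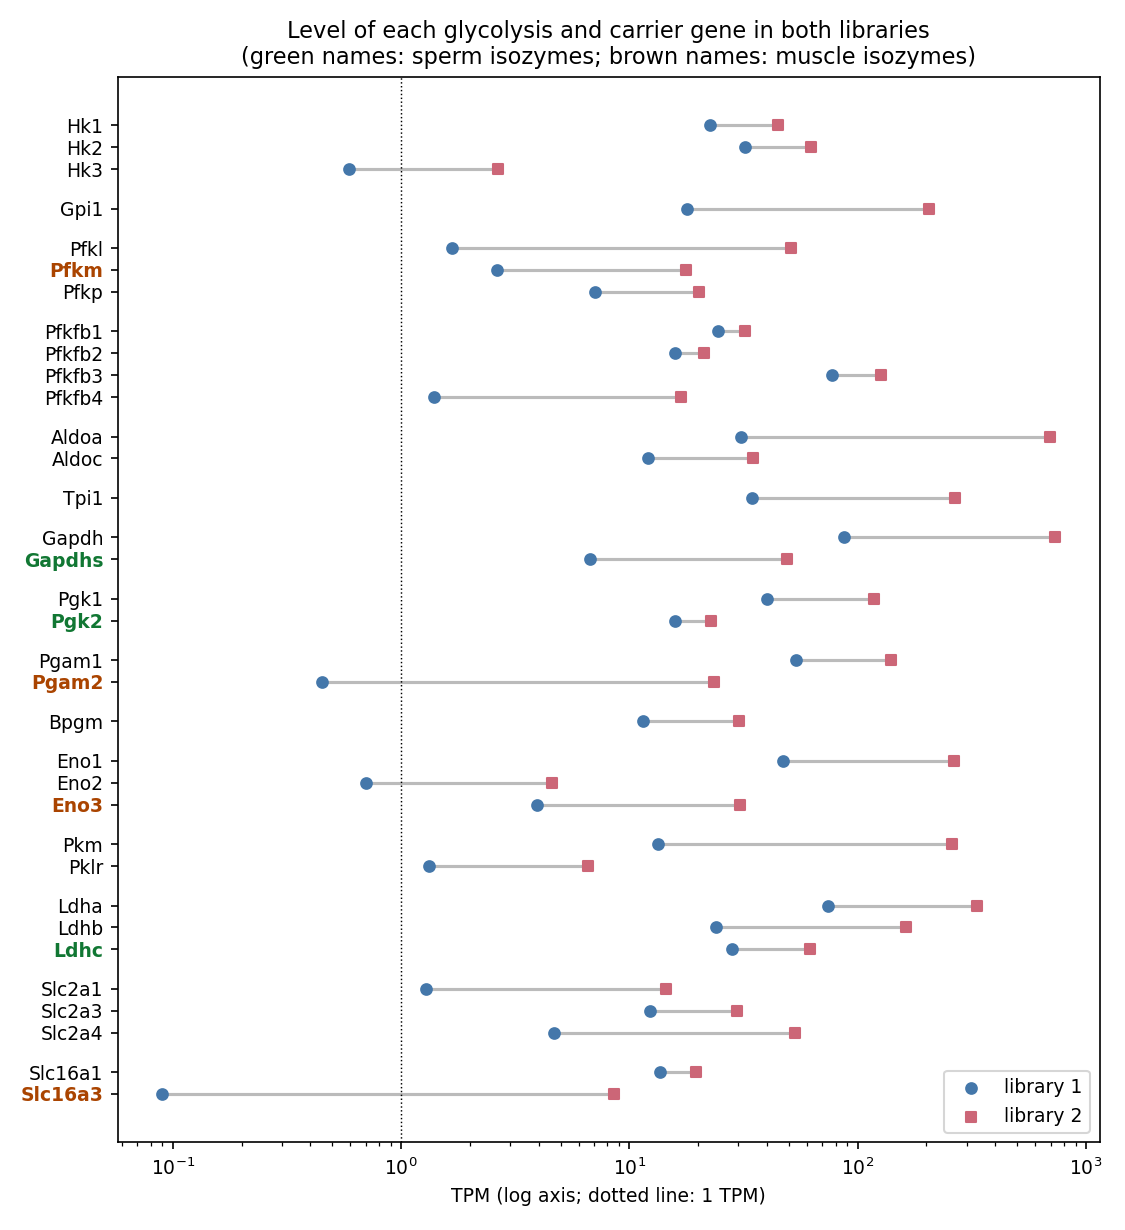
Level of each of the 34 genes in TPM (log axis) in library 1 (circles) and library 2 (squares), grouped by step, with the dotted line at 1 TPM. Each gene lies further right in library 2, and the gap runs from short for Pfkfb1, Pfkfb2 and Slc16a1 to long for Pgam2 and Slc16a3.

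Hexokinases phosphorylate glucose and so keep it in the cell. Hk2, the form of muscle and fat, was at 31.93 TPM in library 1 and 62.11 in library 2, and Hk1, the broad form, at 22.59 and 44.76 TPM. Hk3, a form of blood cells, stood at 0.59 and 2.66 TPM, on 6 and 92 counts. Hk2 held 57.9% and 56.7% of the TPM of this step. With 1 fixed transcript length per gene in place of the length estimated in each library, Hk2 held 62.2% in library 1 and 45.3% in library 2, so its lead over Hk1 in library 2 turned with the length used. Exons of Hk3 overlap Unc5a on the opposite strand, which had 7 and 631 counts. Whether the counting used strand is not given in the sources used here.

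Glucose-6-phosphate isomerase, encoded by Gpi1, was at 17.81 and 206.09 TPM. Phosphofructokinase, the main control point of glycolysis, was led by Pfkp in library 1 and by Pfkl in library 2. Pfkp, the platelet form, was at 7.04 and 20.18 TPM, and its share of the step was 62.1% and 22.7%. Pfkl, the liver form, was at 1.67 and 51.18 TPM, a share of 14.7% and 57.5%. Pfkm, the muscle form, was at 2.63 and 17.69 TPM and held 23.2% and 19.9%. Between libraries the scaled counts of Pfkl had a log2 ratio, library 2 over library 1, of 3.94 (95% counting interval 3.66 to 4.25) and those of Pfkp of 0.68 (0.5 to 0.87), and the intervals do not overlap. Pfkl has a GC content of 57.2% and Pfkp of 48.9%, and after removal of the trend with GC content described further on the ratios were 1.34 and 0.83. Exons of Pfkm overlap Senp1 and those of Pfkp overlap Pitrm1, both on the opposite strand.

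Fructose-2,6-bisphosphate, the strongest activator of phosphofructokinase, is made and broken by the Pfkfb enzymes. Pfkfb3, a form with high kinase activity, was at 76.77 TPM in library 1 and 126.91 in library 2. It held 64.7% ± 0.287 (SD, n = 2 libraries) of the summed TPM. With 1 fixed length per gene its share was 70.4% in library 1 and 62.6% in library 2. In library 1 its TPM was below that of Gapdh alone among the 34 genes, and with 1 fixed length per gene it was above Gapdh, at 94.6 against 40.9 on a scale with the same sum over the 34 genes. Pfkfb1, known from liver and muscle, was at 24.36 and 32.11 TPM, and Pfkfb2, known from heart, at 15.85 and 21.12 TPM. Pfkfb4, known from testis, was at 1.39 and 16.77 TPM, so its share was 1.17% and 8.52%.

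Aldolase splits the sugar bisphosphate. Aldoa, the broad form, was at 30.85 TPM in library 1 and 691.62 in library 2, and Aldoc, the brain form, at 12.1 and 34.67 TPM. The share of Aldoa was 71.8% and 95.2%, and that of Aldoc in library 1 was 28.2% by TPM and 15.3% with 1 fixed length per gene. Tpi1, which interconverts the triose products, was at 34.45 and 266.25 TPM. Its exons overlap Spsb2 on the opposite strand, with 5 and 172 counts.

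Gapdh, the broadly used glyceraldehyde-3-phosphate dehydrogenase (chr6:125161715-125166467, minus strand), was at 87.06 and 730.15 TPM, the highest TPM of the 34 genes in each library. In library 1 this place turned with the length: with 1 fixed length per gene Pfkfb3, Ldha, Pgam1 and Pgk1 stood above Gapdh, whereas Gapdh remained the highest in library 2. The sperm form Gapdhs was at 6.72 and 49.04 TPM, or 7.17% and 6.29% of the step, and 6.73% ± 0.617 (SD, n = 2). With 1 fixed length per gene the share of Gapdhs was 17.1% in library 1 and 5.95% in library 2. The length of Gapdh is uncertain because 83.6% of its TPM in library 1 went to transcripts shorter than 1000 bases, against 3.57% in library 2. Gapdh also shares sequence with 154 annotated pseudogenes, which held 10% and 5% of the counts of the gene and its pseudogenes.

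Phosphoglycerate kinase gives the first ATP of the pathway. Pgk1, encoded on the X chromosome, was at 40.11 and 117.5 TPM, and Pgk2, the sperm form, an intronless copy (chr17:40207015-40208640, minus strand), at 15.85 and 22.82 TPM. The share of Pgk2 was 28.3% in library 1 and 16.3% in library 2. Mutases move the phosphate. Pgam1, the broad form, was at 53.66 and 139.69 TPM, and Bpgm, which makes the regulator of haemoglobin oxygen binding, at 11.52 and 30.31 TPM. Pgam2, the muscle form (chr11:5801640-5803733, minus strand), was at 0.45 TPM in library 1 on 5 counts and at 23.47 TPM in library 2 on 206 counts.

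Enolase was held mostly by Eno1, the broad form, at 46.93 and 263.56 TPM (91.0% and 88.3% of the step). The muscle form Eno3 was at 3.94 and 30.4 TPM and the neuronal form Eno2 at 0.7 and 4.6 TPM. Eno1 thus led by a wide margin in both libraries. Among skeletal muscle markers, 2 of 12 reached 1 TPM in both libraries. Of the 9 tested, 6 were called higher in library 2 and 0 lower, against 30.1% and 18.4% over all genes. After removal of the GC trend 2 (Acta1 and Myh1) were higher and 0 lower, against 9.18% and 8.55% over all genes. Acta1, the actin of skeletal muscle, had 2 and 237 counts, Pgam2 had 5 and 206 and Eno3 had 42 and 362. The GC contents of Acta1, Pgam2 and Eno3 were 57.4%, 56.9% and 54.7%. Myl1, the highest of the 12 by TPM in each library, was at 23.38 and 25.98 TPM. By scaled counts Myl1 was instead lower in library 2, with a log2 ratio of -0.66 (counting interval -0.94 to -0.38), without being called. Myh2 (0.71) and Tnnt3 (0.89) were above 0 and were not called either. Ckm was at 0 and 25 counts and Myh4 at 0 in both. The part of muscle cells in the levels of Pgam2, Eno3 and Slc16a3 was not tested.

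Pyruvate kinase makes the last ATP. Pkm (chr9:59656368-59679375, plus strand) was at 13.28 TPM in library 1 and 257.97 in library 2, and Pklr, the form of liver and red cells, at 1.33 and 6.6 TPM. The share of Pklr was 9.1% and 2.49%, and with 1 fixed length per gene it was 9.13% and 1.36%. In library 2 the M2 form took 84.09% of Pkm TPM, with 6527.33 counts against 1234.67 for M1 and a posterior SD of 91.1 counts. In library 1 the table assigned exactly 255 counts to each form, 50% of the TPM apiece, while the posterior mean gave M1 71.48% and M2 28.52% with a posterior SD of 131.07 counts. With 510 counts for the whole gene, this spread does not place either form first in library 1. Whether any fragment there distinguished the forms was not tested.

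**Figure D2:**
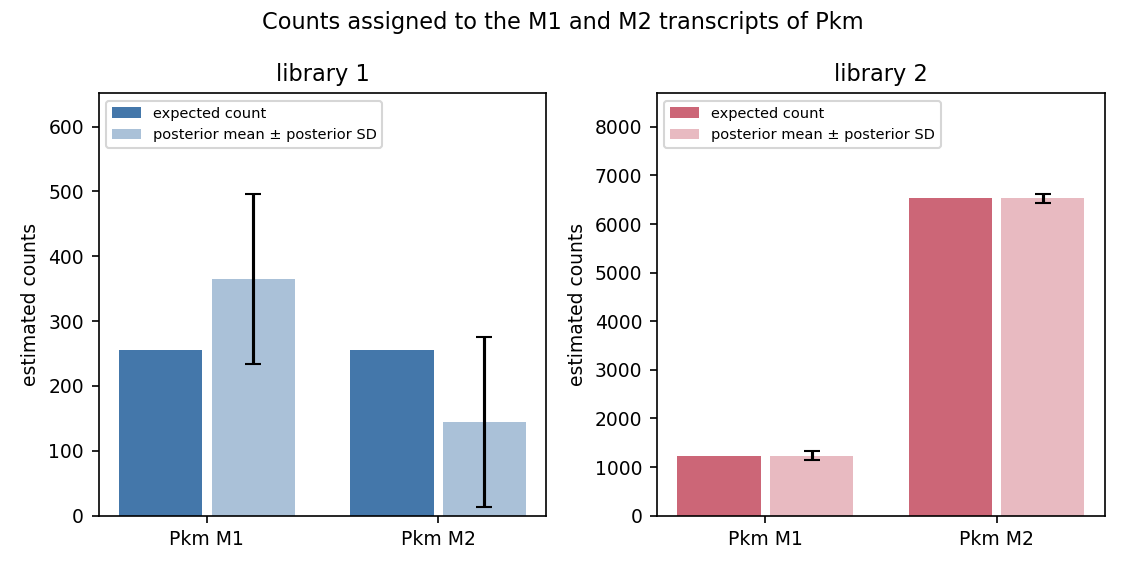
Expected counts (solid bars) and posterior mean counts ± posterior SD (pale bars) of the M1 and M2 transcripts of Pkm in library 1 and library 2, with separate axes in each panel. Library 2 assigns 6527.33 counts to M2 and 1234.67 to M1, whereas library 1 assigns 255 to each with wide error bars.

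Lactate dehydrogenase had 3 subunits at comparable scale. Ldha was at 74.16 TPM in library 1 and 333.1 in library 2 and held 59.3% ± 0.702 (SD, n = 2) of the step. Ldhb, the heart form that favours pyruvate, was at 23.89 and 161.97 TPM, a share of 18.9% and 29.1%. Ldhc, the sperm form, was at 28.03 and 61.84 TPM, a share of 22.2% and 11.1%. Ldhc therefore exceeded Ldhb in library 1 and Ldhb exceeded Ldhc in library 2. Their GC contents were 52.8% for Ldhb and 47.5% for Ldhc. The log2 ratios by scaled counts were 2.25 for Ldhb and 0.48 for Ldhc, and 1.37 and 0.96 after removal of the GC trend. Of the lactate carriers among the members, Slc16a1, the broad carrier, was at 13.67 and 19.6 TPM. Slc16a3, the carrier of glycolytic muscle, was at 0.09 and 8.59 TPM on 6 and 178 counts. Slc16a7, from the list of other monocarboxylate carriers, was at 16.18 and 10.99 TPM. Its TPM was above that of Slc16a1 in library 1 and above that of Slc16a3 in each library.

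**Figure D3:**
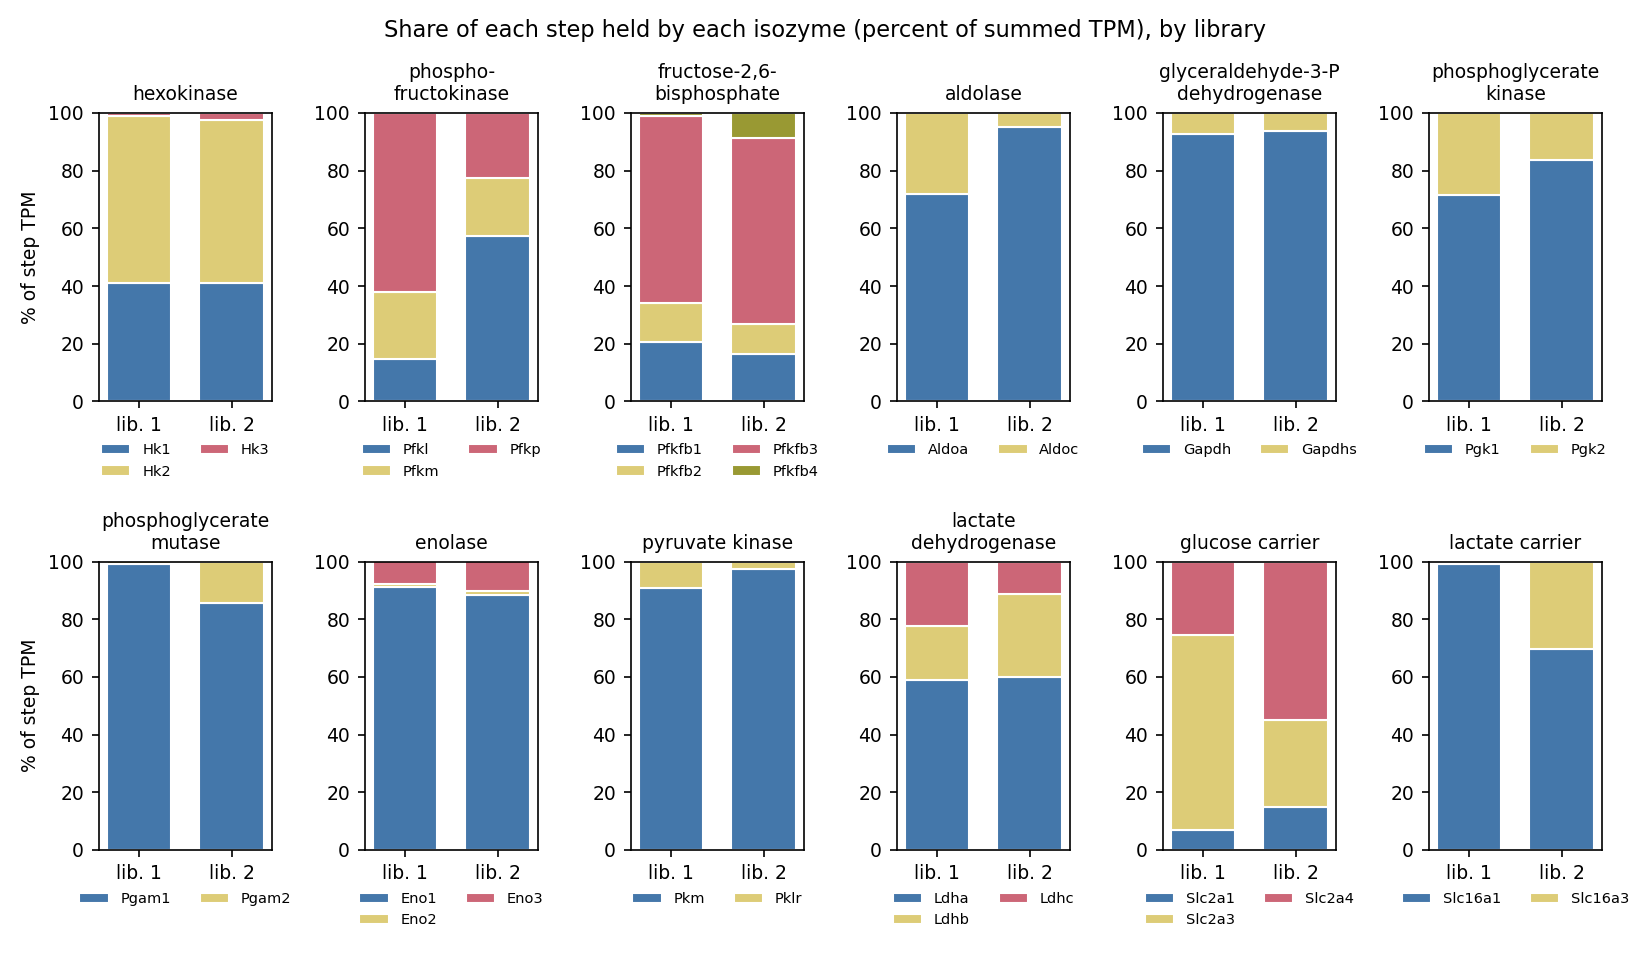
Percent of the summed TPM of a step held by each of its isozymes in library 1 and library 2, for the 12 steps with more than one gene. On this TPM scale hexokinase and Pfkfb3 shares differ little between libraries, whereas phosphofructokinase, glucose carriers and lactate carriers change. The lactate carriers here are Slc16a1 and Slc16a3 only, without Slc16a7.

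Glyceraldehyde-3-phosphate dehydrogenase, phosphoglycerate kinase and lactate dehydrogenase thus carried sperm isozymes beside the broad form, and Gapdhs, Pgk2 and Ldhc were at 6.72, 15.85 and 28.03 TPM in library 1 and 49.04, 22.82 and 61.84 TPM in library 2. Of the 12 sperm-forming cell markers, 11 reached 1 TPM in both libraries, and 7 were called higher in library 2 and 0 lower, against 30.1% and 18.4% over all genes. After removal of the GC trend 3 remained higher (Prm2, Tnp1 and Tssk6), against 9.18% over all genes. The part of sperm-forming cells in these levels was not tested.

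Scaled counts were compared between libraries with a two-sided exact binomial test of library 2 given the sum, with TMM library sizes and an adjustment over all 18261 genes with 10 or more counts in sum. The test covers counting error between these libraries only and has no replicate check. A gene was called if it passed an adjusted p of 0.05 and changed at least 2-fold. All 34 genes were tested: 21 were higher in library 2, 0 were lower and 13 were not called. Over all genes 30.1% were called higher and 18.4% lower. The median log2 ratio was 1.99 over the 34 genes and 0.02 over all genes. The largest ratios were those of Pgam2 (log2 4.84, 95% exact Clopper-Pearson interval 3.73 to 6.62), Slc16a3 (4.39, 3.35 to 5.97) and Pfkl (3.94, 3.66 to 4.25). Slc16a1 (-0.22, -0.34 to -0.09) and Pfkfb3 (-0.19, -0.24 to -0.14) were slightly lower in library 2 without passing 2-fold, and with total counts as the scaling, which shifts the median of all genes by 0.44, both turned to higher (0.22 and 0.24). Pfkfb2 (-0.15) and Pgk2 (-0.21) were also below 0 and likewise turned with that scaling (0.28 and 0.23).

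The ratio followed the GC content of the transcripts. GC content of the 34 genes ran from 42.9% to 58.1% with a median of 54.2%, against 49.7% over all genes tested. Spearman's rho between GC content and log2 ratio was 0.87 over the 34 genes and 0.89 over 12045 genes with a mean count of 100 or more, as a description across genes, which share libraries and depth. With GC content of the longest transcript it was 0.83 over the 34 genes. In 4 GC classes, whose limits were chosen with the values known, the median ratios of the members rose with the class as did those of all genes. The 22 members with 53% GC or more had a median log2 ratio of 2.68 and 19 were called higher, against a median of 2.1 and 77.0% higher in all genes of that class. The 4 members under 47% (Pfkfb1, Pfkfb2, Pgk2 and Slc16a1) had a median of -0.18 and none was called, against a median of -1.02 and 48.2% called lower in that class. In the class from 47% to 50%, 5 members (Pfkp, Pgk1, Bpgm, Ldhc and Slc2a3) had a median of 0.53, against -0.25. From 50% to 53%, Pfkfb3, Ldha and Ldhb had a median of 1.44 and 2 of the 3 were called higher, against 0.47 and 25.9%.

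**Figure D4:**
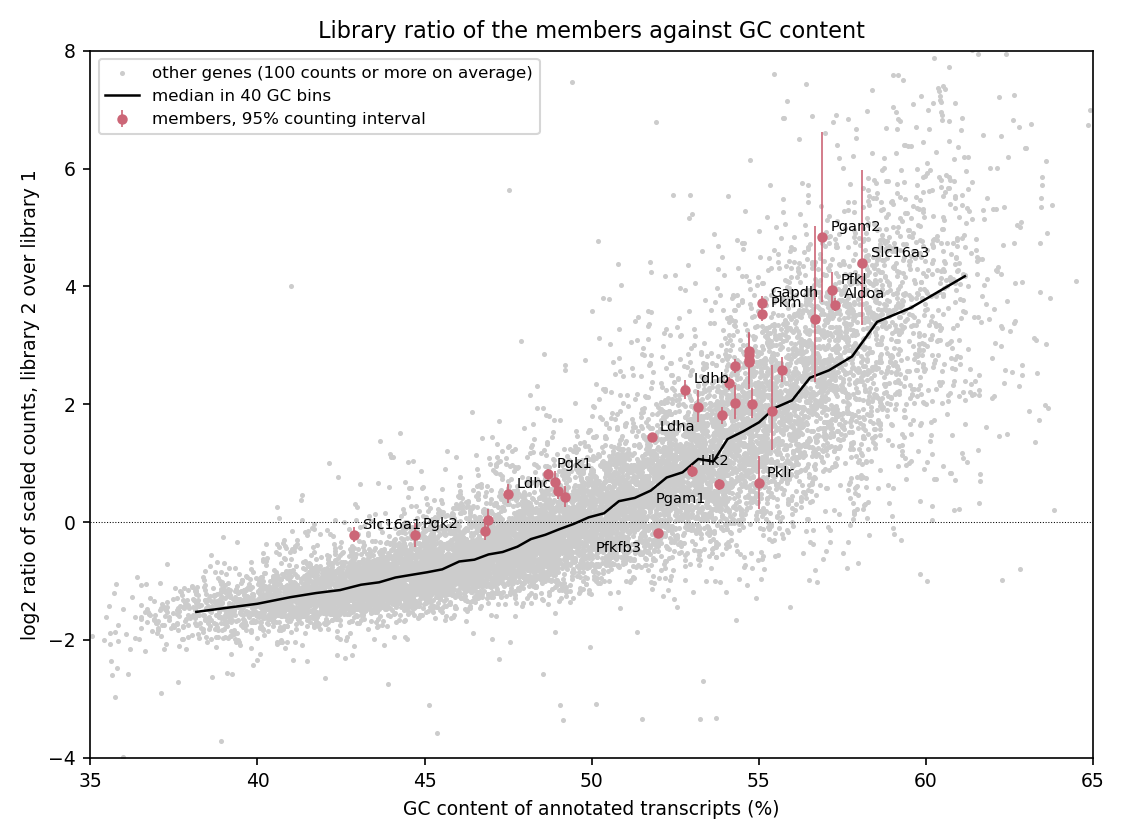
Log2 ratio of scaled counts, library 2 over library 1, against GC content (%) for the 34 members (red, with 95% counting intervals) and for other genes with a mean count of 100 or more (grey), with the median in 40 GC bins as a line. Members follow the rising line, most of them above it, with Pklr, Pfkfb3 and Pgam1 farthest below it.

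After the trend over all genes was removed, 13 of the 34 genes were called higher, Pklr was called lower and 20 were not called, against 9.18% higher and 8.55% lower over 18133 genes. The 34 genes had a median log2 ratio of 0.89 after removal. Genes called higher both before and after removal included Pgam2 (2.31), Gapdh (1.98), Pkm (1.8), Ldhb (1.37) and Pfkl (1.34), whereas Pgk1 (1.02) was called only after removal. Pklr was at -1.03. The sperm forms Pgk2, Ldhc and Gapdhs were at 0.67, 0.96 and 0.38, and none of them was called. Pfkfb4, known from testis, was by contrast called higher both before and after removal.

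The proportion between 2 isozymes of a step can be read from TPM, which uses the length estimated in each library, or from counts alone, in which a length common to both libraries cancels. Both readings left 2 of 12 pairs within 1.4-fold between libraries: Slc2a4 over Slc2a1 changed 1.01-fold by TPM and 1.13-fold by counts, and Eno3 over Eno1 1.37-fold and 1.13-fold, in opposite directions. For 3 pairs TPM gave near equality and counts did not. Hk2 over Hk1 changed 1.02-fold by TPM and 1.92-fold by counts, Gapdhs over Gapdh 1.15-fold and 3.25-fold, and Eno2 over Eno1 1.17-fold and 1.99-fold, each lower in library 2 by counts. These are genes whose TPM in library 1 rested largely on short transcripts, as described next, apart from Gapdhs and Eno2.

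The 5 pairs with a GC difference of 2.92 percentage points or more changed by 1.94-fold or more on both readings. By counts the smallest of these was Ldhc over Ldha at 1.94-fold, with Pgk2 over Pgk1 at 2.03-fold, Aldoc over Aldoa at 3.31-fold and Pfkm over Pfkl at 3.78-fold, all lower in library 2. Pgam2 over Pgam1 was 20.2-fold higher in library 2. In each of the 5 the isozyme with more GC gained in library 2. The limit of 2.92 points is the difference of Pfkm and Pfkl itself, taken from these pairs. The pair of Pklr and Pkm changed as well although the GC content of Pklr less that of Pkm was -0.097 points: its ratio was 7.31-fold lower in library 2 by counts and 3.91-fold lower by TPM. Also below the limit, Gapdhs over Gapdh (-0.266 points) and Eno2 over Eno1 (0.751 points) changed 3.25-fold and 1.99-fold by counts. Ldhb over Ldha (0.966 points) was higher in library 2, 1.75-fold by counts and 1.51-fold by TPM. The part of GC content in these changes was not tested beyond the removal of the trend above.

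Transcript assignment also differed between libraries. The 34 genes have 229 annotated transcripts, and 5 of the genes have only 1. The same transcript led in both libraries in 16 of the genes with several, 12 changed leader, and Pkm had a tie in library 1. Transcripts shorter than 1000 bases held over 50% of gene TPM in 9 genes in library 1 and in 1 in library 2. In Hk1 a transcript of 254 bases took 52.08% of TPM in library 1 on 15.37 counts. Gapdh had an effective length of 462.65 bases in library 1 and 1213.26 in library 2. Aldoa changed from one transcript with 92.54% of its TPM in library 1 to another with 76.54% in library 2.

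**Figure D5:**
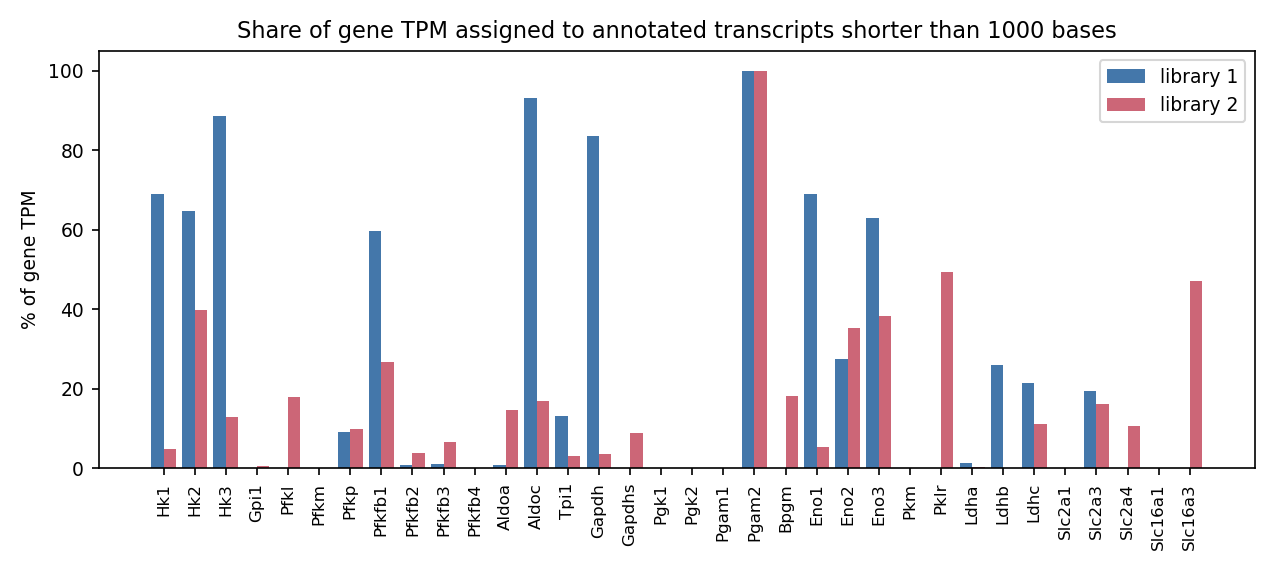
Percent of the TPM of each gene assigned to annotated transcripts shorter than 1000 bases, in library 1 (blue) and library 2 (red). Bars over 50% are seen for 9 genes in library 1 and for Pgam2 alone in library 2, whose only transcript is short.

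Around the pathway, 74 other genes were listed, of which 71 were tested: 24 were higher in library 2, 9 were lower and 38 were not called, with a median log2 ratio of 0.23. Over all genes the shares called were 30.1% and 18.4%, so these counts lie near the background. After removal of the GC trend 8 were higher and 3 lower, against 9.18% and 8.55% over all genes. The calls named below are before removal unless said otherwise, and where a list is small its share cannot be set apart from these backgrounds.

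Of the further aldolase, enolase and lactate dehydrogenase genes, Ldhd, which acts on D-lactate, was at 37.52 and 224.1 TPM and was higher, as was Aldoart2. Only Aldoart2 was called after removal. Of 8 other glucose carriers tested, Slc2a5, Slc2a6, Slc2a8 and Slc2a9 were higher and Slc2a13 was lower. After removal Slc2a8 was higher and Slc2a10 lower. Slc2a5, the fructose carrier, was at 2.44 and 20.76 TPM. Bsg, the chaperone of lactate carriers, was at 134.46 and 437.93 TPM, and its relative Emb at 94.4 and 68.58 TPM. Emb and Slc16a7 were called lower, and after removal only Bsg was.

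Among 15 genes of pyruvate entry, Pcx, which makes oxaloacetate, and Pdk2 were higher, and Dld and Pdk3 lower. After removal Pcx and Mpc2 were higher and none was lower. Mpc1, of the mitochondrial pyruvate carrier, was at 188.11 and 200.91 TPM. Of 9 genes of the pentose phosphate branch, H6pd, Pgls, Pgd, Tkt and Taldo1 were higher and Rpe was lower, and after removal Pgd, Tkt and Taldo1 were higher. Taldo1 was at 14.61 and 224.5 TPM, and G6pdx, which feeds the branch, was at 67.88 and 137.95 TPM and was not called.

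In the list of 12 genes of the glycerol branch and glycogen, Gpd1, Gys1, Pygm and Pygb were higher and Gbe1 and Ugp2 lower, and none was called after removal. Ugp2, which makes the sugar donor of glycogen, was at 90.08 and 60.85 TPM, Pygb, a glycogen phosphorylase, at 28.63 and 118.84 TPM, and Gpd1, which makes glycerol-3-phosphate for fat, at 7.43 and 137.34 TPM. Of 6 gluconeogenesis genes, Fbp1, Pck1, Pck2 and G6pc3 were higher, and only G6pc3 after removal. Pck1, an enzyme of fat and liver, was at 121.92 and 475.87 TPM. Of 9 regulators, Mlxipl was higher and Hif1a lower, and neither was called after removal, when Egln1 was lower. Txnip, a glucose-responsive gene, was at 288.82 and 630.2 TPM.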

How the data were processed

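Polyadenylated RNA of 1 mouse adipose biosample was measured in 2 technical libraries, with mm10 as assembly and M4 as annotation, as a text beside the files states. No aligner or quantifier is given in the sources used here. Per the file headers, the authors deposited expected counts (estimates, not all whole), TPM and FPKM for genes and transcripts. The percent of gene TPM per transcript was likewise deposited by the authors. Symbols, coordinates and GC content came from GENCODE M21 (42462 of 43346 identifiers matched). Promoters came from RefSeq (GRCm38.p6).

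Counts were rounded and tested by an exact binomial test with TMM sizes from edgeR and Benjamini-Hochberg adjustment, after 0.5 was added for ratios. A count was called fractional if not whole within 0.005, as in 7 members. The GC trend was the median in 40 bins. Pseudogenes were aligned at 90% identity or more over 200 bases or more with blastn 2.17.0.

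The named genes are all 34 members, and up to 3 of each list of other genes by mean TPM, with those counted in groups of 5 or fewer. Some results under this rule are not reported here. Members and lists were chosen with earlier results of these data known. Intervals cover counting error only, since reads are not independent molecules. Alternatives covered scalings, filters, posterior means, lengths, FPKM, an edgeR exact test (dispersion 0.01) and each library alone. Software was edgeR 4.0.16 and DESeq2 1.42.0 in R 4.3.3, and scipy 1.17.1, numpy 2.4.6, pandas 2.3.3 and matplotlib 3.10.9 in Python 3.11.15. Signal tracks were left aside.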

Additional observations from a re-analysis of the deposited data

How the results depend on the processing

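No paired analysis was possible because the labels hold a single group. With GC trend removed, 13 members were higher, 1 was lower and the median log2 ratio was 0.89; with total counts, which shift the median of all genes by 0.44, it was 2.42. Directions turned with total counts for Pfkfb2 (0.28), Pfkfb3 (0.24), Pgk2 (0.23) and Slc16a1 (0.22). With the GC trend removed they turned for Hk2 (-0.12), Pfkfb2 (0.43), Pgk2 (0.67), Pgam1 (-0.50), Eno2 (-0.04), Pklr (-1.03) and Slc16a1 (0.87). As means of both libraries, Hk2 held 57.3% of hexokinase TPM, but 53.7% by posterior means, 62.7% by counts and 53.8% with 1 fixed length, an alternative chosen after seeing the data. Pfkfb3 moved to 80.3% (counts) and 66.5% (fixed length), Gapdh to 88.2% and 88.5%, Gapdhs to 11.8% and 11.5%, and Ldha to 65.7% and 61.0%. Eno1 moved to 86.6% (posterior means) and 92.0% (counts). The cause was not tested, except that counts lack length scaling by construction. Leaving out a library leaves no test. Low counts in library 1 limit Hk3, Pgam2 and Slc16a3.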
